A study of Xenopus tropicalis with 6 samples.

Results

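Expression of 6 transcription factor genes of the early kidney, *pax8*, *lhx1*, *osr1*, *osr2*, *wt1* and *emx1*, was examined in N1-SRC morphants of *Xenopus tropicalis* at midneurula Stage 16. The genes were taken by exact symbol from a table of 23634 genes, and all 6 were found. Gene-level RNA-seq values were available for 3 samples of whole embryos of the Nigerian strain injected with splice-blocking morpholinos against *n1-src*, 10 ng in all, and for 3 samples of sibling embryos given a standard control morpholino at an equal dose. Morpholinos are antisense oligonucleotides, and those against *n1-src* block the splice sites of the microexon that distinguishes the neural kinase N1-SRC from C-SRC. No uninjected embryos were included, so both groups carry an injected oligonucleotide. The labels and the methods name *X. tropicalis*, whereas the design text of the series names *X. laevis*. Samples with the same replicate number are called a set here.

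The embryonic kidney of the frog, the pronephros, forms from intermediate mesoderm between the somites and the lateral plate. The genes *osr1* and *osr2* encode zinc finger proteins that act early in this mesoderm, and *pax8* and *lhx1* encode a paired-box and a LIM-homeodomain protein that together establish the kidney field. The zinc finger gene *wt1* belongs to the glomus, the filtration unit of the pronephros, and the homeobox gene *emx1* is transcribed in the pronephric anlage and in the dorsal forebrain. Several of the genes have further sites of expression, such as the ear placode for *pax8* and the nervous system and axial mesoderm for *lhx1*. In whole embryos all these sites are summed, and fewer cells of a type cannot be told apart from less RNA per cell.

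The values are in TPM, the length-corrected share that a gene holds of the transcripts of a sample, on a scale with the same total in each sample. Since depth is lost in TPM, no counting error can be given, and all errors given come from the spread of values between samples or sets. The number of genes at or above 1 TPM was 12710 to 12938 in morphants and 12962 to 13126 in control embryos. The targeted gene *src* was at 15.6, 17.3 and 34.6 TPM in the morphants of sets 1, 2 and 3, against 18.7, 25.8 and 49.2 TPM in their controls. The log2 fold change of *src* was -0.44 (limma, standard error 0.084, adjusted p = 0.0398). The call was lost in 8 of 12 alternative settings. This gene-level sum does not separate *n1-src* from *c-src*. The paper reports reduced *n1-src* in the morphants by RT-PCR and by reads over the microexon. It also reports a larger fall of the *n1-src* transcript than of *c-src* transcripts, and a significant fall of *src* in its own gene-level test. The loading control *rpl8* was at 1993 ± 72.0 TPM (SD, n = 3) in morphants and 1895 ± 174.0 TPM (SD, n = 3) in control embryos. The genes LOC108645507 and LOC100335111 together took 4.89% of all TPM in the morphant sample of set 1, against 0.193 to 0.525% in the other 5 samples.

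The regulators differed widely in level. In morphants *osr2* was the most abundant, at 45.7 ± 7.26 TPM (SD, n = 3), followed by *pax8* at 22.6 ± 4.53 TPM, *emx1* at 21.6 ± 5.08 TPM, *lhx1* at 16.7 ± 1.97 TPM and *osr1* at 6.40 ± 2.04 TPM. In control embryos *osr2* was at 49.6 ± 7.13 TPM (SD, n = 3), *emx1* at 29.8 ± 6.46 TPM, *pax8* at 27.7 ± 2.21 TPM, *lhx1* at 20.8 ± 3.10 TPM and *osr1* at 7.13 ± 2.15 TPM. The ranges of *pax8* and *emx1* overlapped in both groups, so these neighbours did not differ beyond their spread. The range of *lhx1* overlapped those of *pax8* and *emx1* in morphants. In control embryos it lay below all values of *pax8* and overlapped that of *emx1*. Within every single sample, *lhx1* was below both *pax8* and *emx1*. The control mean of *osr2* exceeded that of 89.2% of all genes in the table, and that of *osr1* exceeded 65.7%. The glomus gene *wt1* stood apart, at 0.0540 to 0.0972 TPM in morphants and 0.0794 to 0.166 TPM in control embryos, a control mean above that of 27.4% of the genes.

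**Figure D1:**
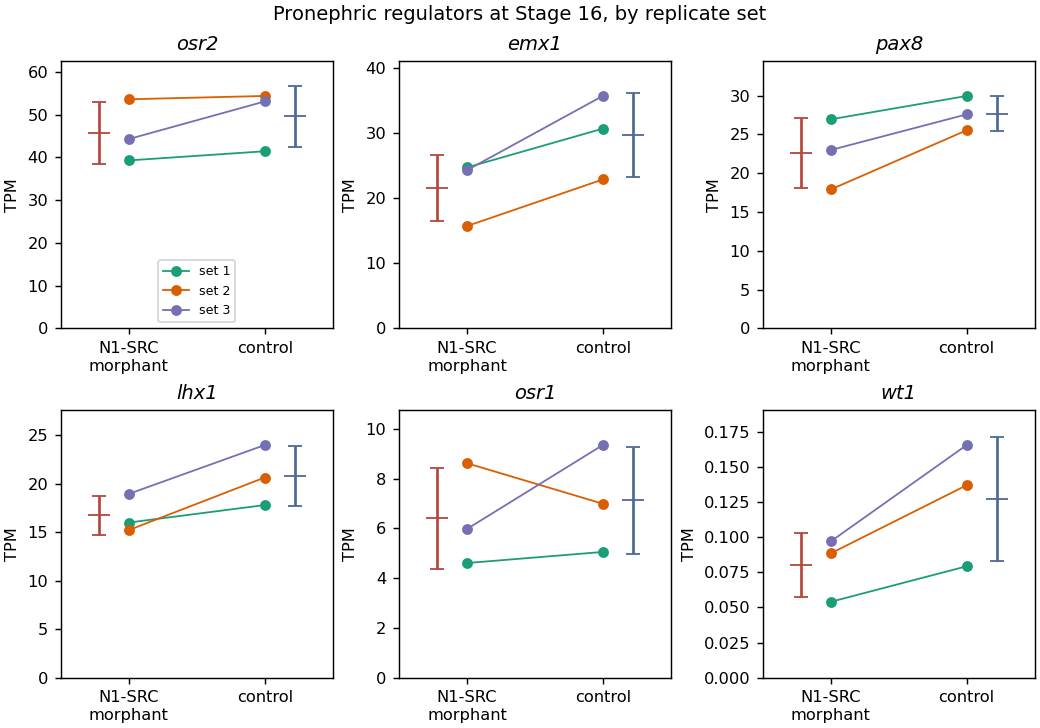
TPM of each regulator (vertical axis, from 0, scaled separately for each gene) in N1-SRC morphants and control embryos, with points of the same set joined by a line, and the group mean ± SD beside them. The lines of *emx1*, *pax8*, *lhx1*, *osr2* and *wt1* run lower in the morphant in all 3 sets, and that of *osr1* crosses in set 2, where the morphant had 8.62 TPM and the control 6.99 TPM.

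The homeobox gene *emx1* was lower in N1-SRC morphants and was the 1 regulator of the 5 tested that passed the threshold. It was expressed at 24.7, 15.7 and 24.3 TPM in the morphants of sets 1, 2 and 3, against 30.7, 22.9 and 35.7 TPM in their controls. Set 2 was the lowest in both groups, and the groups overlapped, since the control of set 2 lay below the morphants of sets 1 and 3. Within the sets the morphant stood at 80.6%, 68.7% and 68.1% of its control. The log2 fold change of TPM + 0.5 was -0.46 (standard error 0.077, 95% interval -0.65 to -0.27, adjusted p = 0.0320 from limma with the set as a block). The call of *emx1* was lost without the block (adjusted p = 0.655 from limma), without a filter on low TPM (0.0830), without the mean-variance trend (0.0566), without replicate 2 (0.108) and without replicate 3 (0.0961), with log2 fold changes from -0.46 to -0.42. Another gene listed as *emx1.2* was at 1.75 TPM on average in morphants and 1.61 TPM in control embryos (log2 fold change 0.081, adjusted p = 0.701 from limma). How reads were shared between the 2 genes is not known. With their TPM summed, the change of *emx1* was -0.42 (adjusted p = 0.0375 from limma).

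The partners *pax8* and *lhx1* were lower in all 3 sets by similar amounts, and neither passed the threshold. The paired-box gene *pax8*, needed for the kidney field to form, was at 26.9, 17.9 and 23.0 TPM in the morphants of sets 1, 2 and 3, against 30.0, 25.5 and 27.6 TPM in their controls. The morphant of set 2 was the lowest of the 6 samples and that of set 1 lay within the control range, so the groups overlapped. Its log2 fold change was -0.30 (standard error 0.087, 95% interval -0.52 to -0.089, adjusted p = 0.0796 from limma). For *lhx1*, which encodes the LIM-homeodomain partner, the morphants had 16.0, 15.2 and 19.0 TPM, against 17.8, 20.7 and 24.0 TPM in their controls. The overlap came from set 3, whose morphant lay above the control of set 1. The log2 fold change of *lhx1* was -0.30 (standard error 0.081, 95% interval -0.50 to -0.10, adjusted p = 0.0698 from limma). The unadjusted p was 0.0136 for *pax8* and 0.0101 for *lhx1* (limma across 13382 genes), and under 12 alternative settings the adjusted p stayed above the threshold, at 0.0655 to 0.683 for *pax8* and 0.0563 to 0.655 for *lhx1*.

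The odd-skipped related genes *osr1* and *osr2*, which act upstream in the intermediate mesoderm, did not pass the test. Expression of *osr2* was 39.3, 53.6 and 44.3 TPM in the morphants of sets 1, 2 and 3, against 41.5, 54.4 and 53.1 TPM in their controls. Set 1 was the lowest in both groups, and the morphant of set 2 exceeded 2 of the 3 controls. The log2 fold change of *osr2* was -0.12 (standard error 0.071, adjusted p = 0.293 from limma), and its 95% interval of -0.29 to 0.057 holds the median change of all genes tested, -0.068. Expression of *osr1* was 4.61, 8.62 and 5.97 TPM in the morphants, against 5.05, 6.99 and 9.35 TPM in their controls. The morphant was higher in set 2 and lower in sets 1 and 3, with changes of 0.28, -0.12 and -0.61 on the log2 scale. The fitted log2 fold change of *osr1* was -0.15 (standard error 0.17, adjusted p = 0.579 from limma). Its 95% interval of -0.57 to 0.27 includes a fall as large as that of *emx1*, and the fitted change was 0.082 without replicate 3.

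The glomus gene *wt1* was below the filter of a group mean of 1 TPM and was not tested with the others. The morphant was lower in each set, at 0.0540 against 0.0794 TPM, 0.0886 against 0.137 TPM and 0.0972 against 0.166 TPM. On the log2(TPM + 0.5) scale these changes shrink to -0.065, -0.11 and -0.16. In a fit without the filter the adjusted p of *wt1* was 0.383 (limma), so no change was detectable at this level.

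**Figure D2:**
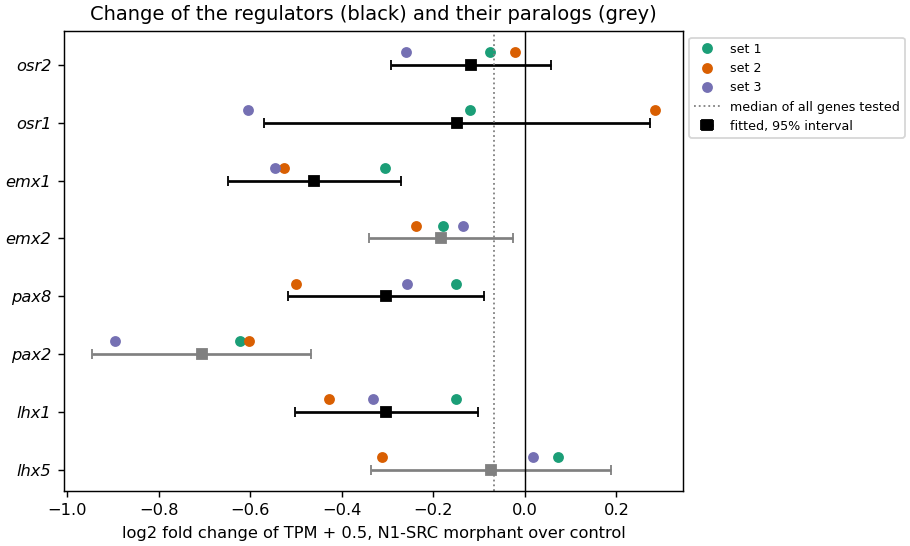
Change of each tested regulator (black) and its paralog (grey) on the log2(TPM + 0.5) scale, N1-SRC morphant over control. Squares are the fitted values with their 95% intervals, coloured points are the 3 sets, and the dotted line is the median of all genes tested, -0.068. The intervals of *emx1*, *emx2*, *pax8*, *pax2* and *lhx1* lie below 0, and of these genes *emx1* and *pax2* passed the adjusted threshold.

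Across the 13382 genes tested, 8.49% were called in either direction, 5.87% lower and 2.62% higher in morphants. Of the 5 regulators tested, 1 was called lower and 0 higher, and 3 had an unadjusted p under 0.05 from limma, all lower (23.4% of all genes tested were lower at that level). The median log2 fold change of the 5 was -0.30, against -0.068 for all genes tested. All 5 fitted changes were negative, as were 8341 of the 13382, and 4 of the 5 genes were lower in all 3 sets, as were 38.5% of all genes (17.6% were higher in all 3). For each of the 5 genes morphant and control ranges overlapped, whereas 11.3% of all genes had every morphant sample below every control. The scale of the TPM values moves the balance of calls: with median scaling 415 genes were called lower and 569 higher, against 786 and 350 as deposited, and the median of all genes was 0.026. The 5 regulators kept a negative sign with that scaling, and *emx1* had a log2 fold change of -0.36 (adjusted p = 0.0494 from limma). The changes of *pax8* and *lhx1* shrank to -0.20 each and that of *osr2* to -0.018. With that scaling 2 of the 5 had an unadjusted p under 0.05 from limma, and 1840 of all 13382 genes were lower at that level.

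The variation of each regulator was split into parts for the set, the morpholino and a remainder. The set has more degrees of freedom than the morpholino, so its share is expected to be larger even without a set effect. Of the sum of squares of log2(TPM + 0.5) over the 6 samples, the set held 43.3% for *lhx1*, 48.9% for *pax8*, 57.3% for *emx1*, 68.3% for *osr1* and 82.9% for *osr2*. The morpholino held 49.5% for *lhx1*, 41.4% for *pax8*, 40.5% for *emx1*, 9.84% for *osr2* and 4.47% for *osr1*. What neither accounted for was 2.26% for *emx1* and 27.2% for *osr1*, with *lhx1*, *osr2* and *pax8* in between. The regulators were ordered differently over the sets. In the controls *pax8* and *emx1* were lowest in set 2, whereas *osr1*, *osr2*, *lhx1* and *wt1* were lowest in set 1. Among the 5 genes tested, the ratio of the highest control to the lowest ran from 1.17 for *pax8* to 1.85 for *osr1*.

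**Figure D3:**
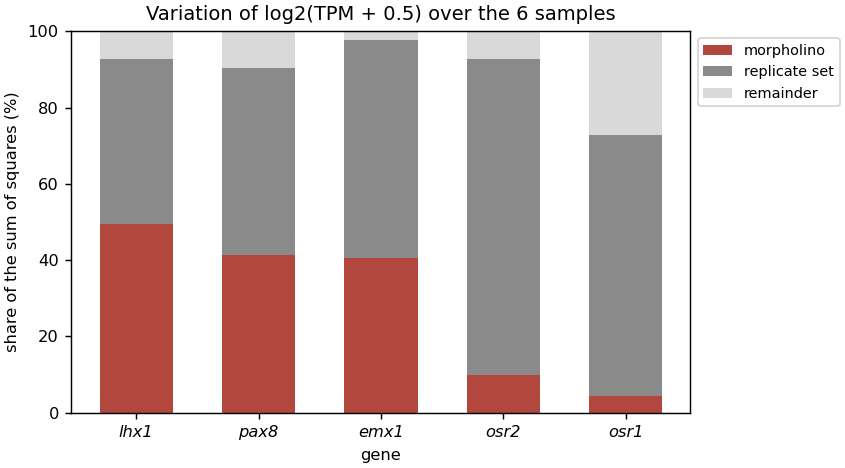
Share of the variation of log2(TPM + 0.5) over the 6 samples that lay between morpholinos (red), between sets (dark grey) and in neither (light grey), in percent of the sum of squares. The set, which has more degrees of freedom than the morpholino, held the largest share for *pax8*, *emx1*, *osr2* and *osr1*. The morpholino held 49.5% for *lhx1*.

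The regulators other than *wt1* were set beside a paralog, *osr1* and *osr2* beside each other. The kidney and midbrain-hindbrain gene *pax2* had 4.91, 4.19 and 9.31 TPM in the morphants of sets 1, 2 and 3, against 7.82, 6.62 and 17.7 TPM in their controls. Set 3 was high in both groups, and every morphant was below its own control. The log2 fold change of *pax2* was -0.71 (standard error 0.097, adjusted p = 0.0256 from limma). Its call was lost without replicate 2 (0.0516), replicate 3 (0.0820), the filter (0.0777) or the block (0.707). Expression of *emx2*, a paralog in forebrain and kidney duct, was 26.6, 26.9 and 24.4 TPM in morphants, against 30.2, 31.8 and 26.8 TPM in their controls, a log2 fold change of -0.18 (adjusted p = 0.114 from limma). For *lhx5*, a gene of forebrain and spinal interneurons, the log2 fold change was -0.074 (adjusted p = 0.658 from limma), and *pax5* was at no more than 0.0685 TPM in any sample.

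The change of a regulator minus that of its paralog was computed within each set. It was -0.13, -0.29 and -0.41 for *emx1* minus *emx2*, -0.22, -0.12 and -0.35 for *lhx1* minus *lhx5*, and 0.47, 0.10 and 0.64 for *pax8* minus *pax2*. These 3 differences kept their sign over the sets, and each had p = 0.25 in an exact two-sided sign-flip test (adjusted p = 0.333 over 4 pairs), the smallest p that 3 sets allow. For *osr2* minus *osr1* the differences were 0.045, -0.30 and 0.35 (exact p = 0.75). As levels, *osr2* exceeded *osr1* by 7.39 ± 1.16-fold in morphants and 7.22 ± 1.35-fold in control embryos (SD, n = 3 each), a difference smaller than the spread.

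The wider list of pronephric regulators held 28 tested genes, of which 3 were called lower and 25 were not called, with a median log2 fold change of -0.14. The genes called lower were *pax2*, the TALE homeobox gene *meis1* and the posterior Hox gene *hoxa11*. Expression of *meis1* was 28.0, 23.3 and 26.2 TPM in morphants, against 37.0, 30.7 and 40.1 TPM in their controls, with no overlap between the groups. Its log2 fold change was -0.46 (adjusted p = 0.0302 from limma), and the call was lost without the trend (0.0563), the filter (0.0798) or the block (0.480). For *hoxa11* the log2 fold change was -0.41 (adjusted p = 0.0486 from limma). The call of *hoxa11* was lost with median scaling (0.0740), quantile normalization (0.0860) and a pseudocount of 1 (0.0501). It was also lost without LOC108645507 and LOC100335111 (0.0524), the trend (0.0646), replicate 1 (0.0949), the filter (0.103) or the block (0.568). The genes that did not pass included *ldb1*, which encodes the LIM domain-binding cofactor of Lhx1 (log2 fold change 0.34, adjusted p = 0.0721 from limma), chosen after its values were seen. A further 5 genes of the list, among them *mecom*, were in the table and below the filter. The wider list and the signalling, glomus and tubule lists described next hold 75 tested genes together, and limma called 7 of them, beside the 8.49% called over all genes tested. Without replicate 2 limma called 0 of 76 (19 with an unadjusted p under 0.05), where 283 of all 13338 genes tested were called. Without replicate 3 it called 0 of 74 (21 with an unadjusted p under 0.05), where 107 of all 13347 were called.

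In the list of signals and receptors of pronephric development, 1 of 30 tested genes was called lower and 1 higher, and the median log2 fold change was -0.16. The ligand gene *wnt4*, required for pronephric tubules, had 18.1, 16.9 and 18.0 TPM in the morphants of sets 1, 2 and 3, against 25.7, 21.8 and 27.7 TPM in their controls. All morphant samples were below all controls. The log2 fold change of *wnt4* was -0.49 (standard error 0.077, adjusted p = 0.0299 from limma), and the call was lost without replicate 2 (0.0647) and without replicate 3 (0.0873). It was also lost without the trend (0.0527), the filter (0.0798) or the block (0.437). The gene called higher was *cyp26a1*, which encodes a retinoic acid-degrading enzyme. It was at 190.5, 209.8 and 166.8 TPM in morphants, against 162.4, 173.2 and 133.4 TPM in their controls, a log2 fold change of 0.28 (adjusted p = 0.0415 from limma). The call of *cyp26a1* was lost without the trend (0.0862), the filter (0.0863) or the block (0.660), and also without replicate 2 or replicate 3. The angiogenic ligand gene *vegfa* had the next smallest p, with a log2 fold change of -0.44 (adjusted p = 0.0523 from limma). The receptor gene *ret* and its ligand gene *gdnf* were below the filter.

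Genes of the differentiated organ were scarce. Of 12 glomus and podocyte genes in the table, 6 were below the filter, and the slit diaphragm gene *nphs1* did not exceed 0.165 TPM in any sample. Of the 6 tested, 1 was called lower, *podxl*, which encodes a podocyte surface sialoprotein, with 3.71, 2.45 and 3.66 TPM in morphants, against 6.18, 3.40 and 5.70 TPM in their controls. Its log2 fold change was -0.55 (adjusted p = 0.0398 from limma), and the call was lost with median scaling (0.0534) and quantile normalization (0.0618). It was also lost without replicate 1 (0.0786), the filter (0.0976) or the block (0.631), and without replicate 2 or replicate 3. The other 2 with the smallest p were *mafb* and *tcf21*, with log2 fold changes of -0.11 and -0.15 (adjusted p = 0.356 and 0.464 from limma). Of 28 tubule and duct genes in the table, 14 were tested, and the endocytic receptor gene *cubn* and the water channel gene *aqp2* did not exceed 0.0717 and 0.0480 TPM. The gene called lower was *slc12a1*, a salt cotransporter gene of the distal tubule, with 2.17, 2.60 and 3.71 TPM in morphants, against 3.92, 4.50 and 4.75 TPM in their controls. Its log2 fold change was -0.58 (adjusted p = 0.0475 from limma), and the call was lost with median scaling (0.0709) and quantile normalization (0.0882). It was also lost without the trend (0.0570), replicate 1 (0.0859), the filter (0.110) or the block (0.522), and without replicate 2 or replicate 3. For *slc3a1* and *atp6v1b1* the log2 fold changes were -0.44 and -0.34 (adjusted p = 0.0526 and 0.0652 from limma).

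**Figure D4:**
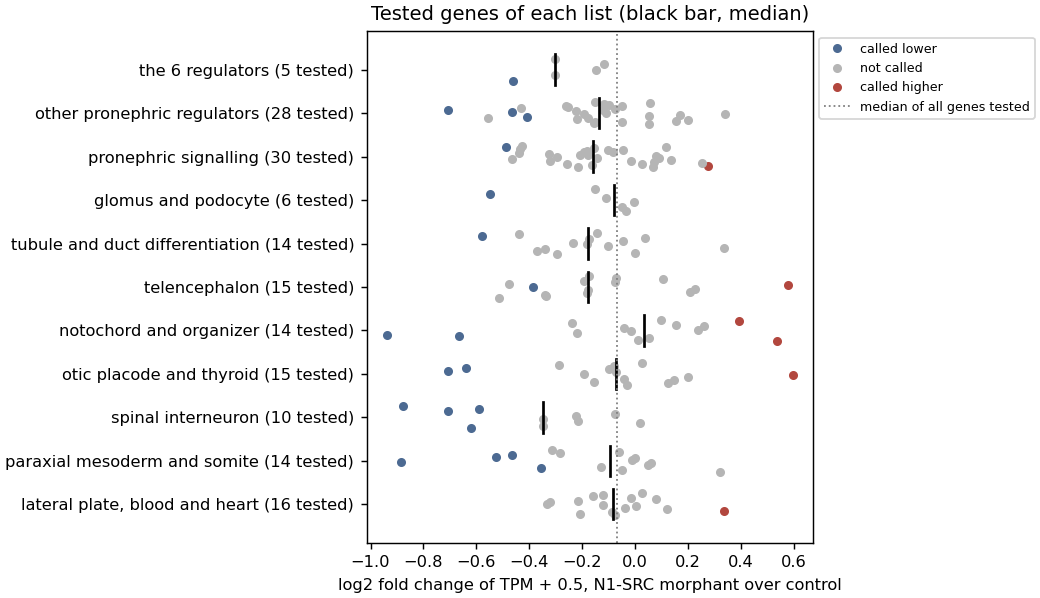
Log2 fold change of TPM + 0.5, N1-SRC morphant over control, of each tested gene in 11 lists, with the median of each list as a black bar and the median of all genes tested, -0.068, as a dotted line. Blue points were called lower and red points higher. The list of the 6 regulators has 1 blue point, *emx1*, and the wider list of pronephric regulators has 3.

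Genes of other tissues that transcribe the regulators were read as well. Of 15 tested telencephalon genes, 1 was called lower and 1 higher, with a median log2 fold change of -0.18. The anterior homeobox gene *hesx1* was at 122.7, 137.9 and 130.2 TPM in morphants, against 82.0, 94.9 and 84.7 TPM in controls (log2 fold change 0.58, adjusted p = 0.0159 from limma). For *arx* the log2 fold change was -0.52 (adjusted p = 0.0501 from limma). Summed over the list, TPM were 426.7 to 536.9 in morphants and 420.3 to 528.5 in control embryos. These sums include *hesx1*, with a mean of 130.2 TPM in morphants and 87.2 TPM in control embryos, so they can hide falls of less abundant genes. Of the 15 genes, 11 had a negative and 4 a positive log2 fold change. In all 3 sets 8 were lower and 3 higher, beside 38.5% and 17.6% of all genes tested. The cortical marker *tbr1* did not exceed 0.228 TPM. The part of the forebrain in the lower *emx1* was not tested.

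Of 14 tested notochord and organizer genes, 2 were called lower and 2 higher, with a median log2 fold change of 0.033. The sheath collagen genes *col2a1* and *col9a1* were lower, with log2 fold changes of -0.66 and -0.94 (limma, adjusted p = 0.0148 and 0.0204), and the BMP ligand gene *admp* was higher, by 0.54 (adjusted p = 0.0333 from limma). Of 15 tested ear placode and thyroid genes, 2 were called lower, *pax2* and *sox8* (log2 fold change -0.64, adjusted p = 0.0445 from limma), and 1 higher, *hmx3* (0.60, adjusted p = 0.0486 from limma). The call of *sox8* was lost with median scaling (0.0597), quantile normalization (0.0661), without LOC108645507 and LOC100335111 (0.0520) and without the trend (0.0683). That of *hmx3* was lost with a pseudocount of 1 (0.0503), a filter at 5 TPM (0.0520), without the trend (0.0634) and without replicate 1 (0.0636). Both were also lost without replicate 2, without replicate 3, without the filter and without the block. Of 10 tested spinal interneuron genes, 4 were called lower and 6 were not called, with a median of -0.35, and the smallest p were those of *tubb2b*, *ebf2* and *pax2* (log2 fold changes -0.88, -0.62 and -0.71, adjusted p = 0.0196, 0.0221 and 0.0256 from limma). A further 8 genes of this list, among them *lbx1* and *en1*, were below the filter. Summed TPM of this list were 97.2 to 122.2 in morphants and 149.7 to 197.7 in control embryos. The sum and the calls are not specific to interneurons, since both include *tubb2b*, which the paper treats as a marker of neuronal differentiation. Mean *tubb2b* was 40.9 TPM in morphants and 75.5 TPM in control embryos, and mean *ebf2* was 16.7 and 26.2 TPM. The 6 genes not called were *ebf3*, *isl1*, *isl2*, *lhx3*, *lhx5* and *evx1*. Their log2 fold changes were -0.35, -0.22, -0.35, -0.22, -0.074 and 0.020. The part of these tissues in the values of *pax8* and *lhx1* was not tested.

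The tissues on either side of the intermediate mesoderm were read in the same way. Of 14 tested paraxial mesoderm and somite genes, 4 were called lower and 10 were not called, with a median of -0.094. The smallest p were those of the segmentation genes *ripply2.1* and *mespa* and the myogenic gene *myf6*, with log2 fold changes of -0.46, -0.36 and -0.89 (adjusted p = 0.0272, 0.0474 and 0.0417 from limma). With median scaling 1 gene of the list was called, *ripply2.1*, and the calls of *mespa* (0.0740) and *myf6* (0.0553) were lost. Of 16 tested lateral plate, blood and heart genes, 1 was called higher and 15 were not called, and the median was -0.082. The gene called was *gata2*, a blood and ventral ectoderm factor (log2 fold change 0.34, adjusted p = 0.0328 from limma), followed by *hoxb6* and *hand2* (-0.32 and -0.33, adjusted p = 0.0569 and 0.153 from limma). Of the 13 genes called among the 3 with the smallest p in each of these 6 tissue lists, those of the pronephric lists left out, 10 kept their call without replicate 1, 6 without replicate 2 and 3 without replicate 3, which were *col2a1*, *hesx1* and *tubb2b*. With median scaling or quantile normalization 9 of these 13 kept their call, without the trend 5, and without the filter or the block 0.

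The genes whose log2(TPM + 0.5) followed each regulator most closely were found over the 6 samples, which share 3 sets, among 10900 other named genes. The closest to *emx1* were *nr2f5*, a COUP-type nuclear receptor gene, and *ppp2r2b* (Pearson's r = 0.995 and 0.993, over 6 samples). Expression of *nr2f5* was 85.9, 57.9 and 83.2 TPM in morphants, against 110.0, 80.6 and 129.4 TPM in their controls, with a log2 fold change of -0.49 (adjusted p = 0.0285 from limma). Since *nr2f5* was picked for following *emx1* over morphants and controls together, its fall is not independent of that of *emx1*. The closest were *phf1* and *chkb* for *pax8* (r = 0.988 and 0.987), and *ttbk2* and *rasa3* for *lhx1* (r = 0.996 and 0.995). They were *asap1* and *synj2* for *osr1* (r = 0.991 and 0.985), and *ints10* and *nsmce4a* for *osr2* (r = 0.989 and 0.988). With 6 samples such values are common, since 117 to 754 genes had r above 0.9 with a given regulator, and they describe these samples alone. Among the regulators themselves, the highest r were 0.92 for *osr1* with *osr2* and 0.88 for *pax8* with *emx1*. For *lhx1*, r was 0.71 with *emx1*, 0.48 with *pax8*, 0.44 with *osr1* and 0.42 with *osr2*. It was negative for *pax8* with *osr1* (-0.46) and *osr2* (-0.45), and for *emx1* with *osr2* (-0.26) and *osr1* (-0.13).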

How the data were processed

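Polyadenylated RNA of whole embryos was sequenced as short reads. The authors processed the reads with cutadapt, estimated transcript levels with Salmon on the *X. tropicalis* reference transcriptome and aggregated them per gene. The authors deposited TPM of each sample, with their mean TPM of each group beside them. Read depth cannot be recovered from TPM. The study tested genes with Sleuth, which was not used here. Instead limma 3.58.1 in R 4.3.3 was fitted to log2(TPM + 0.5), with moderation of variances along a mean-variance trend. The 13382 genes that reached a mean of 1 TPM in morphants or in controls were tested, the filter of the study, with Benjamini-Hochberg adjustment over all of them at 0.05. The replicate number was a block, since the labels number the samples alike and the study describes sets of sibling embryos. Same-numbered samples deviated together (correlation across genes 0.61 to 0.73). This leaves 2 residual degrees of freedom per gene. With the block, p-values rest on how the difference of morphant and control varied between the 3 sets, moderated across genes, not on the spread between samples. The labels do not say whether the 3 samples of a group come from separate clutches, so p-values cannot be taken to measure a spread between clutches. A fold change on this scale understates that of low genes.

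The regulators and the gene lists were chosen with earlier results of these data known, so list counts are descriptions. List genes named are the 3 with the smallest p in each list, and like genes the 2 with the highest r. Named outside this rule are *ldb1*, the spinal interneuron genes not called, and genes below the filter. Some genes that this rule selects are not reported here. Counts and medians stand in place of set tests. All 6 symbols matched RefSeq genes of UCB_Xtro_10.0. Coordinates and sequences are not given, since the values rest on another build.

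Alternatives were pseudocounts of 0.1 and 1, no filter, a filter at 5 TPM, no block, median scaling, quantile normalization, removal of LOC108645507 and LOC100335111, no trend, and leaving out each set. The sum of *emx1* and *emx1.2* was added after seeing the data.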

Additional observations from a re-analysis of the deposited data

How the results depend on the processing

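None of *pax8*, *lhx1* and *osr2* was called in any of the 12 alternatives, since the adjusted p from limma stayed above 0.05. Their log2 fold changes kept their sign, from -0.38 to -0.20, from -0.38 to -0.20 and from -0.17 to -0.018. The log2 fold change of *osr1* was -0.36 to 0.082 when a set was left out, and its sign changed without replicate 3 (0.082). That of *emx1* was -0.54 to -0.42 when a set was left out (adjusted p from limma 0.0263 to 0.108) and lost its call without a filter, without the trend and without the replicate block (-0.46 in each). That of *src* was -0.53 to -0.38 when a set was left out, and its call was lost without a filter, without the trend and without the replicate block (-0.44 in each), with median scaling (-0.34), with quantile normalization (-0.39) and without LOC108645507 and LOC100335111 (-0.42). The number of the 6 regulators called was 1 and became 0 without a filter, without the trend, without the replicate block, and when set 2 or set 3 was left out (0 to 1 over the sets). The cause was not tested.

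Among all genes, limma called 0 higher and 0 lower without a filter (4975 had an unadjusted p under 0.05), and 0 higher and 1 lower without the replicate block (1124 with an unadjusted p under 0.05). Without the trend 126 were higher and 368 lower. With median scaling 569 were higher and 415 lower, and with quantile normalization 402 were lower. Leaving out a set gave 44 to 472 higher and 63 to 714 lower. Leaving out a single sample removes the information of its set, so it is the same as leaving out the set. Over the 4 pronephric lists, without the replicate block limma called 0 of 75 genes (8 with an unadjusted p under 0.05). TPM values without depth limit what can be said of *wt1* and other genes near 0, and 3 sets with 2 residual degrees of freedom limit all p-values.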
